A study of Mus musculus with 24 samples.

Results

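Chemokine receptors are G protein-coupled receptors that let leukocytes follow gradients of chemokines into tissues, and their set on a T cell changes when it meets antigen. Naive T cells circulate between blood and lymphoid organs, whereas effector T cells gain receptors for chemokines that inflamed or barrier tissues make. Cxcr3, Cxcr6, Ccr9, Cxcr4, Ccr6, Cx3cr1, Ccr2, Ccr4 and Ccr8 are the members described here, chosen by name as chemokine receptors linked to homing into tissues. These 9 genes, of 23892 named genes on the arrays, were measured by 14 of the 39429 gene probes, and 6 of them were among the 9450 genes bright enough to be tested.

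The values come from 24 one-colour arrays of CD8+ T cells from mice in a model of acute graft-versus-host disease. The cells were OT-I cells, whose T cell receptor recognises a peptide of ovalbumin, and they alone carried the CD45.1 allele, by which they were selected with magnetic beads. The day 4 samples, with 5 arrays for each of small intestine, lung, liver and blood, were recovered 4 days after transplantation, and the 4 day 0 samples, here called graft, were taken from the graft, whose T cells the study calls naive. Recipients were female C57Bl/6 mice with the Act-mOVA transgene (Tg(CAG-OVA)), which drives membrane-bound ovalbumin from a ubiquitously active promoter. They were 8 to 16 weeks old, received 11 Gy in 2 split doses, and were given bone marrow and splenocytes that carried CD45.2. The beads select on CD45.1 and not on CD8. All samples share 300 pg of total RNA and 2 rounds of linear amplification, and no label says that each sample came from its own mouse, so the p-values weigh differences only against sample-to-sample spread, which may be partly technical.

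A level is log2 of the background-subtracted signal minus the array's 75th percentile over gene probes, so that 1 unit is a 2-fold change and levels of different probes cannot be compared with each other. Cd3e, Cd8a and Cd8b1, which mark CD8+ T cells, were detected above background on each of the 24 arrays. Between 22.6% and 38.6% of gene probes were well above background on an array, and the number of arrays limits the precision. Lung 4 and intestine 4 had the lowest scores of the day 4 arrays on the first principal component, at -51.3 and -66.8, where the other day 4 arrays ran from -41.6 to 78.0 and the graft arrays from -113 to -97.3. The 4 graft arrays lay on 1 slide with a scan day of its own, so slide, scan day and group cannot be told apart in any comparison with graft. Each of the 5 day 4 slides held 1 array of each site, and the slide went with the replicate number.

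The probes of Cxcr6 and those of Cx3cr1 overlapped, so that the second probe of Cxcr6 and of Cx3cr1 was no independent measurement of the transcript. The following 30-base stretches of these probes are shown because they give the shift between the probes of a pair, with the bases that both stretches share in capitals. The 60-base probes of Cxcr6, at chr9:123720719-123720778 and chr9:123720709-123720768 (mm9, + strand), share 50 bases, and those of Cx3cr1, at chr9:119957811-119957870 and chr9:119957806-119957865 (mm9, - strand), share 55.
Cxcr6 A_55_P2165199: aatgtataaaACAGAGCTTAAGACTTTAAC
Cxcr6 A_55_P1962209: ACAGAGCTTAAGACTTTAACaaatacaaga
Cx3cr1 A_55_P2007964: cgtgcCTAGAGTGTGTCTATCCCACTTGTA
Cx3cr1 A_55_P2054362: CTAGAGTGTGTCTATCCCACTTGTAattct

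The promoters of the 4 members whose level passed the test against graft in at least 1 site are shown next. Each is the 250 bases before the gene's start, from RefSeq on GRCm38.p6, and capitals mark the Runx letters TGTGGT or, on the other strand, ACCACA.
Cxcr3 promoter, chrX:101734148-101734397 (- strand): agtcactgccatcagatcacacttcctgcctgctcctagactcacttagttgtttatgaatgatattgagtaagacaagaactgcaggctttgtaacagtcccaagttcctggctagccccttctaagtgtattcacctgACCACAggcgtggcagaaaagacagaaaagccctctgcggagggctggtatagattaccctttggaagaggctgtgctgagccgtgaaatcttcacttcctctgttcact
Cxcr6 promoter, chr9:123806227-123806476 (+ strand): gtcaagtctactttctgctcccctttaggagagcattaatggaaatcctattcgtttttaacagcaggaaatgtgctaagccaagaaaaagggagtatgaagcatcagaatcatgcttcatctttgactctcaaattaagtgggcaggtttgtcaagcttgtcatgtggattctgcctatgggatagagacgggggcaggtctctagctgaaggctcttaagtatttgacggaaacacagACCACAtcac
Ccr9 promoter, chr9:123766961-123767210 (+ strand): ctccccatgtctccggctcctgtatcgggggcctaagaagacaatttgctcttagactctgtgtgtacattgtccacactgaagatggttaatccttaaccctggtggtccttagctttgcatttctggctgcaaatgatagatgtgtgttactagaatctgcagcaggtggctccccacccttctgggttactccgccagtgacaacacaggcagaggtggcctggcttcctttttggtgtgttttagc
Cxcr4 promoter, chr1:128592300-128592549 (- strand): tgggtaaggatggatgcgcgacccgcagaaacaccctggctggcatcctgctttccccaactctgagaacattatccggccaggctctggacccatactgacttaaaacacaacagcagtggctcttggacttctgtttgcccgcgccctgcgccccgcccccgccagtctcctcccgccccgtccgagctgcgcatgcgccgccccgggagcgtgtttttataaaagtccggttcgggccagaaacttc
The letters were searched on both strands together with AGGTGT for T-box factors and AGGTCA, which retinoic acid receptors bind, and none of the 3 motifs overlapped another in these windows. Runx letters began 110 bases before the start of Cxcr3, 10 before that of Cxcr6 and 54 before that of Cx3cr1, and 14% of all 32851 promoters of this length held them. AGGTCA was found once, 44 bases before the start of Ccr6, and in 14% of all promoters. AGGTGT was found in no member and in 11.8% of all promoters. These matches describe letters and name no site. On this build 6 of the 9 members lie on chromosome 9, where Ccr9 (chr9:123767211-123783457) and Cxcr6 (chr9:123806477-123811754) are neighbours 23.0 kb apart, and Cx3cr1 and Ccr8 are 23.8 kb apart. The annotation places Fyco1 over Cxcr6, Gm17021 over Ccr9, Gm33858 over Cx3cr1 and Gm33799 over Ccr6.

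Against graft, the day 4 cells had more Cxcr3 transcript and less Ccr9 and Cxcr4 transcript, while Ccr6 and Cx3cr1 did not pass the test in any site. Cxcr6 passed it in blood alone. In these bulk samples, a smaller share of cells that express a gene and less RNA per cell cannot be told apart. Over the 4 sites as 1 group, 1 of the 6 tested members rose and 2 fell, where 53.4% of all tested genes passed the same test, 34.3% higher and 19.1% lower, so the members' share is near that of the array as a whole. The median difference was -0.22 over the 6 members and 0.23 over all tested genes. That split depends on the scaling: 3244 of 5049 called genes were higher here, against 2552 of 5088 with quantile normalisation, 2163 of 5297 and 2068 of 5677 when arrays were scaled to the 75th percentile or the median of probes detected on all arrays. The median of all genes moved with it, down to -0.32 with the last of these and up to 0.29 with normexp background correction.

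**Figure D1:**
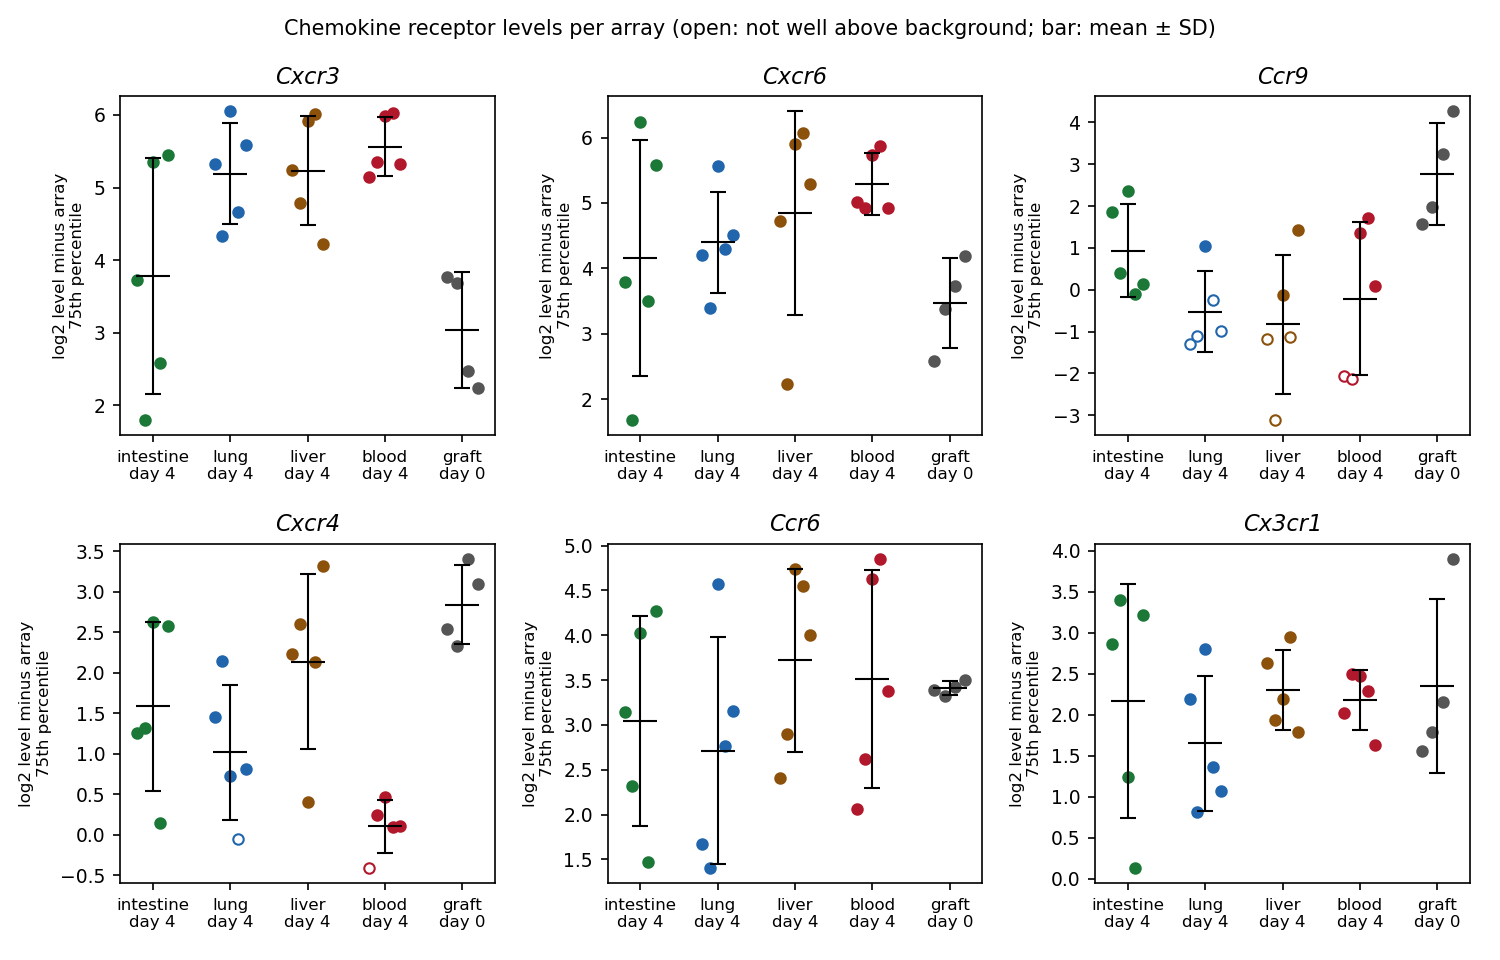
Levels of the 6 tested receptors on each array, on the y axis as log2 minus the array's 75th percentile, for intestine, lung, liver and blood on day 4 (5 arrays each) and graft on day 0 (4 arrays). Open points were not well above background, and bars give mean ± SD. The 15 Cxcr3 points of lung, liver and blood lie above all graft points, and the blood points of Cxcr4 lie between -0.41 and 0.47, below every graft point.

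Cxcr3, the receptor for the interferon-induced chemokines Cxcl9, Cxcl10 and Cxcl11, was the member that rose most widely. Its probe lies at chrX:98926920-98926979 (mm9, - strand). On the intestine arrays 1 to 5 its levels were 3.72, 1.80, 5.35, 2.58 and 5.45, and on the lung arrays 5.32, 4.33, 6.05, 4.67 and 5.58. On the liver arrays they were 5.24, 4.79, 5.91, 6.01 and 4.23, and on the blood arrays 5.14, 5.35, 5.98, 6.02 and 5.33. The 4 graft arrays read 3.77, 3.68, 2.48 and 2.23. Every lung, liver and blood array was above every graft array, while the intestine arrays spanned the graft range, with arrays 2 and 4 low and arrays 3 and 5 as high as the other sites. Day 4 averaged 4.94 ± 1.14 (SD, n = 20) and graft 3.04 ± 0.80 (SD, n = 4), a difference of 1.90 (SE 0.49, limma adjusted p = 0.00256), with 17 of 20 day 4 arrays above all graft arrays.

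Groups that do not overlap made up 26.4% of all tested genes for intestine, 33.3% for lung, 50.8% for liver and 54.4% for blood against graft, and 17.1% for day 4 as a whole. By site, Cxcr3 was higher than in graft by 2.15 in lung (limma adjusted p = 0.00705), 2.19 in liver (0.00452) and 2.52 in blood (0.00132). The intestine difference of 0.74 had a 95% interval from -0.50 to 1.99 (limma adjusted p = 0.352). From high to low the site means ran blood, liver, lung, intestine and then graft, and no neighbouring pair in this order passed its test. Relative to the median of all genes the day 4 difference was 1.68, and between 1.48 and 1.75 over the 6 scalings and background corrections.

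Ccr9, the receptor for Ccl25, which the thymus and small intestine make, is found on naive CD8+ T cells of the mouse and guides cells to the gut. It was lower on day 4. Its probe, at chr9:123690334-123690393 (mm9, + strand), read 1.87, 0.40, 2.37, -0.11 and 0.13 in intestine and -1.31, -1.11, 1.05, -0.26 and -1.0 in lung. It read -1.19, -3.11, -0.12, -1.13 and 1.43 in liver and -2.07, -2.14, 1.35, 1.71 and 0.09 in blood, against 1.57, 1.99, 3.24 and 4.26 in graft. All 5 intestine arrays and all 4 graft arrays were well above background, but only 1 lung, 2 liver and 3 blood arrays were. The values of the other arrays in those sites are therefore near the limit of the assay.

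Ccr9 averaged -0.16 ± 1.49 on day 4 (SD, n = 20) and 2.77 ± 1.22 in graft (SD, n = 4). The difference was -2.92 (SE 0.71, limma adjusted p = 0.00157), and 17 of 20 day 4 arrays lay below all graft arrays. It ran from -3.47 with the median of detected probes to -1.90 with normexp background correction and passed in all 6 scalings and background corrections, although dim values make its size uncertain. Lung (-3.29, limma adjusted p = 0.0047), liver (-3.59, 0.00173) and blood (-2.98, 0.00638) each fell below graft. In intestine the difference was -1.83, with a 95% interval from -3.64 to -0.03 and an adjusted p of 0.107. This comparison passed under 4 of the 6 scalings and background corrections, with -2.28 (0.0461) under quantile normalisation. Intestine had the next highest mean after graft, and the means of blood, lung and liver, which rest mostly or in part on values not well above background, are not ordered here. A second Ccr9 probe, at chr9:123680935-123680994 and named through another transcript, was above background on 0 of 24 arrays and gives no level.

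Cxcr4, the receptor for Cxcl12 and known for holding leukocytes in bone marrow, was the other member that differed between day 4 and graft. Its probe lies at chr1:130485079-130485138 (mm9, - strand). The intestine arrays read 1.26, 1.31, 2.62, 0.14 and 2.58 and the lung arrays 1.45, 2.14, 0.73, -0.06 and 0.81. The liver arrays read 2.23, 2.60, 0.40, 2.12 and 3.32, the blood arrays -0.41, 0.24, 0.47, 0.10 and 0.11 and the graft arrays 2.54, 2.33, 3.40 and 3.09. Blood formed a tight low group, and 4 of 5 liver arrays were above every blood array. Day 4 averaged 1.21 ± 1.11 (SD, n = 20) and graft 2.84 ± 0.49 (SD, n = 4). The difference was -1.63 (SE 0.43, limma adjusted p = 0.0028), with 16 of 20 day 4 arrays below all graft arrays. It ran from -2.18 with the median of detected probes to -1.02 with normexp background correction and passed in all 6 settings.

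The Cxcr4 difference from graft was -2.74 in blood (limma adjusted p = 0.000149) and -1.82 in lung (0.0082), and in both sites no array reached the graft range. Liver, at -0.70 (0.267), and intestine, at -1.26 (0.0651), did not pass. Intestine passed without liver 3 (-1.26, 0.0366), intestine 3 (-1.52, 0.0349) or intestine 5 (-1.51, 0.0350). Both passed in 4 of the 6 scalings and background corrections, with quantile normalisation at -1.33 (0.0265) in liver and -1.70 (0.00778) in intestine. From high to low the means ran graft, liver, intestine, lung and blood, and no neighbours in that order passed their test.

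Cxcr6 binds the membrane-anchored chemokine Cxcl16 and is known from T cells that stay in the liver. It read 3.80, 1.69, 6.23, 3.50 and 5.59 in intestine and 4.21, 3.40, 5.57, 4.29 and 4.51 in lung. In liver it read 4.72, 2.23, 5.90, 6.07 and 5.29, in blood 5.02, 4.92, 5.74, 5.88 and 4.93 and in graft 2.58, 3.38, 3.73 and 4.19. Every blood array was above every graft array, whereas intestine ranged from below to well above graft. The day 4 mean was 4.67 ± 1.25 (SD, n = 20) and the graft mean 3.47 ± 0.68 (SD, n = 4), a difference of 1.20 (SE 0.61, limma adjusted p = 0.1001) that did not pass. Blood alone passed, at 1.82 (0.042). Intestine (0.69), lung (0.93) and liver (1.37) did not, and no difference between blood and another site passed. Liver passed without liver 2 (2.03, 0.0183), and day 4 as a whole passed without liver 2 (1.37, 0.0340) or intestine 2 (1.36, 0.0377). The blood call was lost without graft 1 (1.53, 0.121), graft 2 (1.79, 0.0777), graft 3 (1.91, 0.0592), blood 3 (1.71, 0.0803) or blood 4 (1.68, 0.0837), and the overlapping probe gave 1.78 (0.0502). It passed in 2 of the 6 scalings and background corrections.

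Ccr6 binds Ccl20 and is known for guiding cells to epithelial surfaces. Its probe, at chr17:8449933-8449992 (mm9, + strand), was well above background on all 24 arrays. The levels were 3.15, 2.32, 4.02, 1.47 and 4.27 in intestine, 1.67, 1.41, 4.57, 2.77 and 3.16 in lung and 2.41, 2.90, 4.74, 4.55 and 4.01 in liver. Blood read 2.07, 2.62, 4.62, 4.85 and 3.38 and graft 3.39, 3.32, 3.43 and 3.50. The graft arrays stayed within 0.18 of each other, but the day 4 arrays of each site fanned out on both sides of them. The difference between day 4 and graft was -0.16, with a 95% interval from -1.30 to 0.97 (limma adjusted p = 0.815), and by site it ran from -0.70 in lung to 0.31 in liver. The day 4 value was negative under each scaling, down to -0.71, and 0.20 with normexp background correction.

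Cx3cr1, the receptor for the transmembrane chemokine Cx3cl1 and a mark of cytotoxic effector cells in mouse and human, did not pass in any comparison. It read 2.86, 3.40, 1.23, 0.13 and 3.21 in intestine and 2.20, 0.82, 2.80, 1.36 and 1.07 in lung. Liver read 2.63, 1.94, 2.20, 2.95 and 1.79, blood 2.01, 2.50, 2.47, 2.29 and 1.63 and graft 1.56, 1.79, 2.15 and 3.89. Graft 4 was the highest of all 24 arrays and intestine 4 the lowest. The difference between day 4 and graft was -0.27, with a 95% interval from -1.24 to 0.69 (limma adjusted p = 0.636), and the overlapping probe gave -0.05 (0.948). The first probe's difference was negative under each scaling, down to -0.83, and 0.07 with normexp background correction. Another probe of the gene, at chr9:119959018-119959077, was above background on 0 of 24 arrays.

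The remaining 3 members were too dim to test. Ccr2, the receptor for the monocyte chemokine Ccl2, and Ccr4, the receptor for Ccl17 and Ccl22, were above background on 0 of 24 arrays. Ccr8, which binds Ccl1, was above background on liver 5 (-0.01) and intestine 5 (-0.43) with 1 of its probes, at chr9:120003941-120004000 (mm9), and on no array with the other. For these genes the arrays set only an upper bound on the level. Fitted without the filter on dim probes, Ccr2 gave -0.59 for day 4 against graft (limma adjusted p = 0.0476), with every array below background on both sides.

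**Figure D2:**
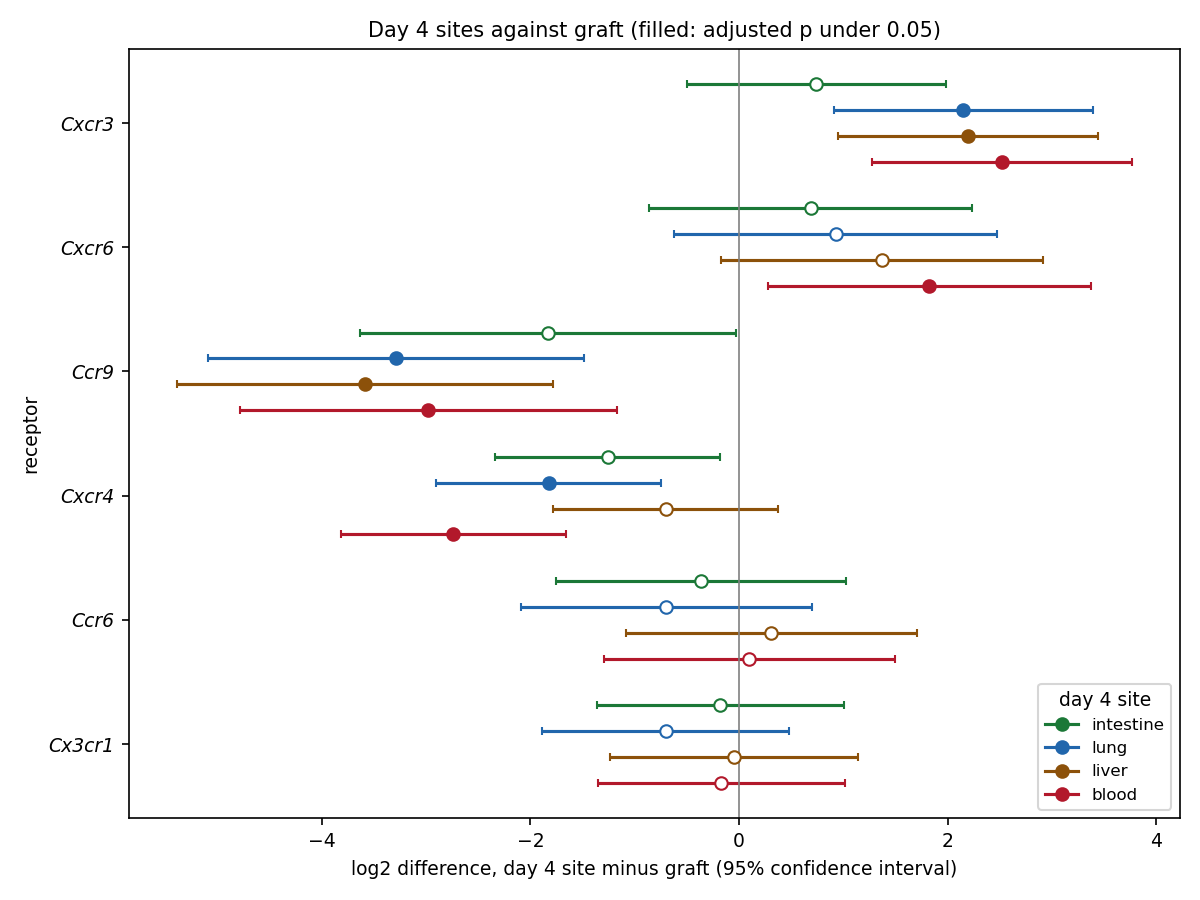
Log2 difference between each day 4 site and graft for the 6 tested receptors on the x axis, with 95% confidence intervals from limma; filled points have an adjusted p under 0.05. Cxcr3 is filled to the right in lung, liver and blood, Ccr9 to the left in the same 3 sites, Cxcr4 to the left in lung and blood, and Cxcr6 to the right in blood.

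Counted over sites, 0 of 6 members passed against graft in intestine, 3 in lung, 2 in liver and 4 in blood, where 34.9%, 37.4%, 50.5% and 56.5% of all tested genes did. The 4 comparisons share the graft arrays. Of all tested genes 22.1% were higher and 12.8% lower in intestine, 25.8% and 11.6% in lung, 34.4% and 16.1% in liver, and 35.2% and 21.2% in blood. The 9 calls, of 24, were 4 higher and 5 lower. In lung 1 member was higher and 2 were lower, in liver 1 and 1, and in blood 2 and 2.

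Among the day 4 sites, 2 of 36 tests of members passed, both between intestine and blood, where 13.2% of all tested genes passed (1.78% higher and 11.4% lower). Cxcr3 fell in intestine relative to blood, and Cxcr4 rose. Cxcr3 averaged 3.78 ± 1.63 in intestine and 5.56 ± 0.41 in blood (SD, n = 5 each), a difference of -1.78 (SE 0.57, limma adjusted p = 0.0426). On the 5 slides, each with 1 array of either site, the difference ran from -3.55 to 0.12 and was negative on 4. With slide as a fixed block it was -1.78 (0.0398), and with slide as a random block -1.78 (0.0281). Cxcr4 averaged 1.58 ± 1.04 in intestine and 0.10 ± 0.32 in blood, a difference of 1.48 (SE 0.49, limma adjusted p = 0.0485). It was positive on 5 of 5 slides, from 0.04 to 2.47. The Cxcr4 call was lost with slide as a fixed block (limma adjusted p = 0.0648) and kept with slide as a random block (0.0352).

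Both calls sit close to the threshold. Leaving out 1 array at a time, the Cxcr3 call was lost for 8 of 24 arrays (liver 1, blood 2, 3, 4 and 5, and intestine 1, 2 and 4), with differences from -2.20 to -1.29 and the highest adjusted p, 0.143, without intestine 2. Without lung 4 and intestine 4 it was -1.48 (0.121). The Cxcr4 call was lost for 19 of 24 arrays, all but liver 3 and 5, lung 2 and 4 and intestine 4, with differences from 1.22 to 1.84 and adjusted p-values from 0.0332 to 0.0960. Over the 6 scalings and background corrections the Cxcr3 difference ran from -1.80 to -1.52 and passed in 2, and the Cxcr4 difference ran from 1.04 to 1.75 and passed in 4. Beside these results, the summed linear level of 8 T cell genes ran from 157 to 623 in intestine and from 349 to 513 in blood, and 0 of these 8 genes passed between the sites. Their median difference was -0.68, against -0.23 for all genes. On intestine arrays 1 to 5 the sums were 270, 179, 623, 157 and 468. Arrays 2 and 4 had the lowest sums there and also the lowest Cxcr3 levels, at 1.80 and 2.58. The part of the T cell genes in the result was not tested.

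Cxcr3 in intestine against liver, at -1.45 (limma adjusted p = 0.158), passed without intestine 3 (-1.85, 0.0492) or intestine 5 (-1.87, 0.0309). The other site pairs gave no member call, on backgrounds of 1.45% for lung against blood, 0.381% for intestine against lung, 0.455% for lung against liver, and 0% for liver against blood and for intestine against liver. In the last 2 pairs 302 and 2157 of all genes had an unadjusted p under 0.05. The largest member difference of these pairs was that of Cxcr4 between liver and blood, at 2.04 with a 95% interval from 1.02 to 3.05, positive on 4 of 5 slides (unadjusted p = 0.000402, limma adjusted p = 0.400). Ccr9 was higher in intestine than in lung on 5 of 5 slides, by 1.46 on average (limma adjusted p = 0.730). Cxcr3 was lower in intestine than in lung on 5 of 5 slides, with a mean difference of -1.41 (limma adjusted p = 0.416).

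**Figure D3:**
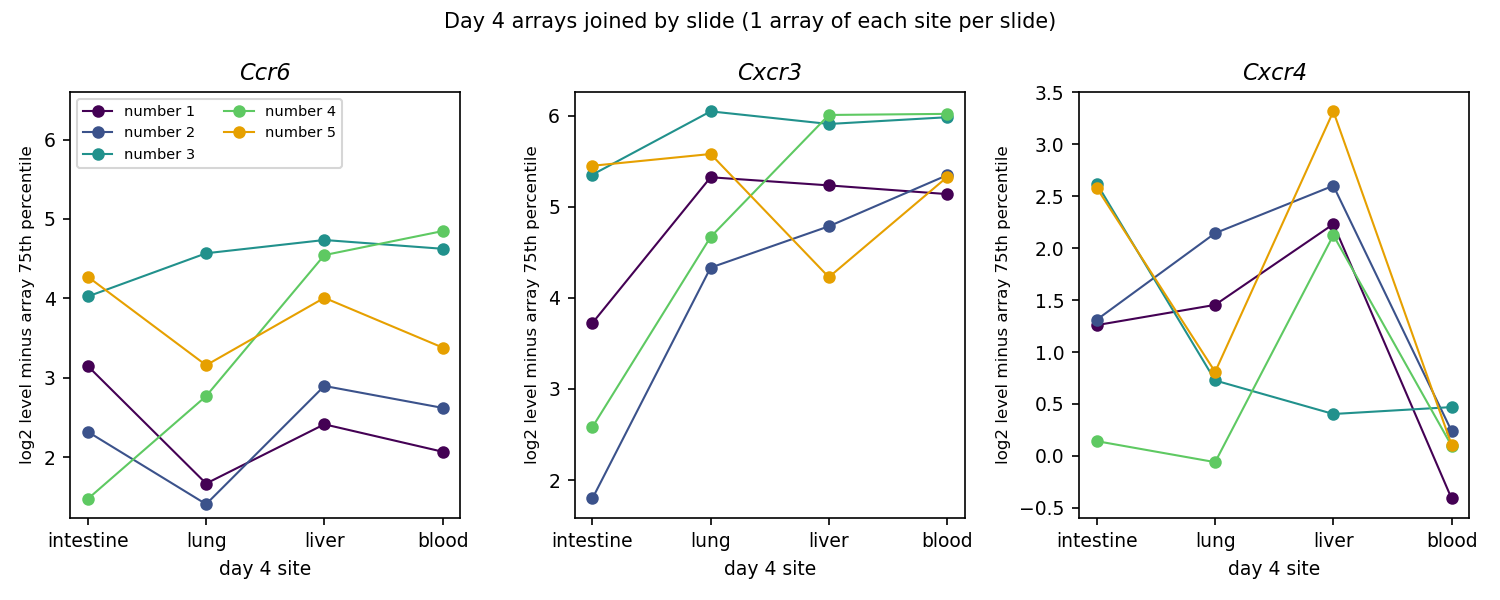
Levels of Ccr6, Cxcr3 and Cxcr4 on the y axis (log2 minus the array's 75th percentile) in the 4 day 4 sites, with lines joining the 4 arrays of a slide, named by their replicate number. The Ccr6 lines of numbers 1 and 2 lie lowest in lung, liver and blood, while the Cxcr4 lines all reach their lowest or near-lowest points in blood.

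Over the 20 day 4 arrays, the slide took a larger share of the spread of some members than the site did. For Ccr6 the slide held 55.9% of the sum of squares and the site 12.3%, and for Cxcr6 57.8% and 12.7%. For Cxcr4 the order was turned, with 13.8% for slide and 48.3% for site, and Cxcr3 had 25.9% and 37.8%. Ccr9 had 37.4% for slide and 21.1% for site, and Cx3cr1 9.33% for each. The median tested gene had 20.8% for slide and 27.3% for site. The slide means of Ccr6 were 2.32, 2.31, 4.49, 3.41 and 3.70 for numbers 1 to 5, and those of Cxcr6 were 4.44, 3.06, 5.86, 4.93 and 5.08. For both genes number 3 was the highest and number 2 the lowest. Because slide and replicate number go together, a shared slide and a shared mouse or day of work cannot be told apart.

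Some members varied together over the day 4 arrays. Over these 20 day 4 arrays, which share slides, Pearson's r was 0.78 between Cxcr3 and Cxcr6, 0.71 between Ccr6 and Cxcr6 and 0.60 between Ccr6 and Cxcr3. It was 0.53 between Ccr6 and Ccr9, 0.41 between Ccr6 and Cx3cr1 and 0.38 between Ccr9 and Cxcr6. Cxcr4 had r between -0.08 and 0.14 to each of the others, and Cx3cr1 had r between 0.08 and 0.16 to each but Ccr6. Over all 24 arrays, the tested genes most like Cxcr3 outside the set were Lamtor4 (r = 0.93), Chsy1 (0.93) and Bin3 (0.92). Those most like Cxcr6 were Tm2d3 (0.83), Lck (0.83) and Mrpl58 (0.81), of which Lck encodes a T cell receptor-proximal kinase. Cxcr4 was most like Nfkbid (0.86), an inhibitor of the NF-kappaB family, H2aw (0.84) and Hdc (0.81), the enzyme that makes histamine. Ccr6 was most like the predicted genes Gm6607 (0.86), Gm11686 (0.86) and Gm13229 (0.85), and Ccr9 like Tcp11l2 (0.79), 5830427D02Rik (0.76) and Rs5-8s1 (0.76). Cx3cr1 had the weakest likenesses, to Tubb2a (0.69), Malt1 (0.67) and Tmem141 (0.67). These are descriptions over arrays that share slides and groups.

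Among 14 other chemokine receptors, 8 were tested. On day 4 1 rose and 2 fell against graft, where 34.3% of all tested genes were higher and 19.1% lower. Ccr10, the receptor for the skin chemokine Ccl27, was above background on 16 of 20 day 4 arrays and on 0 of 4 graft arrays, at least 1.89-fold higher on day 4 (limma adjusted p = 0.00489). Ccr10 met the filter for testing through day 4 sites alone, so its call is no support beyond that detection. Cxcr5, which brings lymphocytes into B cell follicles, fell by 2.45 (SE 0.60, 0.00159). Ackr2, a scavenging receptor for inflammatory chemokines, fell (limma adjusted p = 5.35e-05), but was above background on 2 of 20 day 4 arrays, so its difference of -3.14 rests largely on dim values and ran from -3.68 to -1.15 over the 6 scalings and background corrections. With no filter on dim probes, another, brighter Ackr2 probe stood for the gene and gave -0.44 (0.204). Between intestine and blood, Ccr7, the receptor for entry into lymph nodes, was higher by 1.83 (SE 0.50, 0.0239) on 5 of 5 slides, and Ccr10, above background on 2 of 5 intestine and 5 of 5 blood arrays, was lower, with a difference of -2.55 (SE 0.77, 0.0356). The atypical receptor genes Ccrl2, at 3.71 (0.0438), and Ackr1, at 1.02 (0.0488), also rose there and were named after their values were seen. In that comparison 3 of the 8 rose and 1 fell, where 1.78% of all tested genes were higher and 11.4% lower. With slide as a fixed block 0 passed in either direction, whereas the Ccr7 and Ccr10 calls were kept with slide as a random block. Over the 6 scalings and background corrections 1 to 3 rose and 0 or 1 fell, and the Ccr10 call was lost with the median (-2.29, 0.0744) and the 75th percentile (-2.51, 0.0804) of detected probes. The Ccr7 call was lost without blood 2 (1.80, 0.0504) or intestine 2 (1.82, 0.0637), and the Ccr10 call without blood 2, 3 or 5 or intestine 2 or 4 (-2.66 to -2.23, highest adjusted p = 0.104 in the limma fits).

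Of 15 ligands of the members, 4 were tested and 0 passed between day 4 and graft, at an adjusted p from 0.269 for Cxcl11 to 0.566 for Ccl25. Between intestine and blood Cxcl10, a ligand of Cxcr3, was higher by 4.18 (SE 0.74, limma adjusted p = 0.00629), on 5 of 5 slides. It was above background on 5 of 5 intestine arrays and 1 of 5 blood arrays.

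Of 28 genes that carry or switch off the signal of chemokine receptors, 23 were tested. Against graft 12 rose and 2 fell on day 4, where 34.3% of all tested genes were higher and 19.1% lower. The median difference was 0.76 beside 0.23 for all genes. Over the 6 scalings and background corrections the number that rose ran from 7 to 12 and the number that fell from 2 to 8. Rac1, a GTPase that drives the leading edge of a migrating cell, rose by 1.80 (SE 0.23, limma adjusted p = 1.04e-06), and the G protein subunit gene Gnb2 rose by 1.29 (SE 0.19, 5.56e-06), each on 20 of 20 day 4 arrays above all graft arrays. Grk3, a kinase that desensitises such receptors, was above background on 0 of 20 day 4 arrays and on 4 of 4 graft arrays, at least 2.40-fold lower on day 4 (5.84e-06). Grk3 met the filter for testing through graft alone, so its call is no support beyond that detection. The arrestin gene Arrb2, whose product uncouples receptors from G proteins, fell by 0.82 (SE 0.13, 1.67e-05), below graft on 20 of 20 arrays. Day 4 and graft arrays did not overlap for 17.1% of all tested genes. Between intestine and blood 0 rose and 3 fell, where 1.78% of all tested genes were higher and 11.4% lower. Among the 3 were Rgs3, which shortens G protein signals, at -1.89 (SE 0.31, limma adjusted p = 0.00503), and the kinase gene Pik3cg at -1.65 (SE 0.40, 0.0155). Pik3cg was above background on 1 of 5 intestine arrays and did not pass with normexp background correction (-0.68, 0.0611). The receptor kinase gene Grk2, at -1.34, was named after its value was seen.

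**Figure D4:**
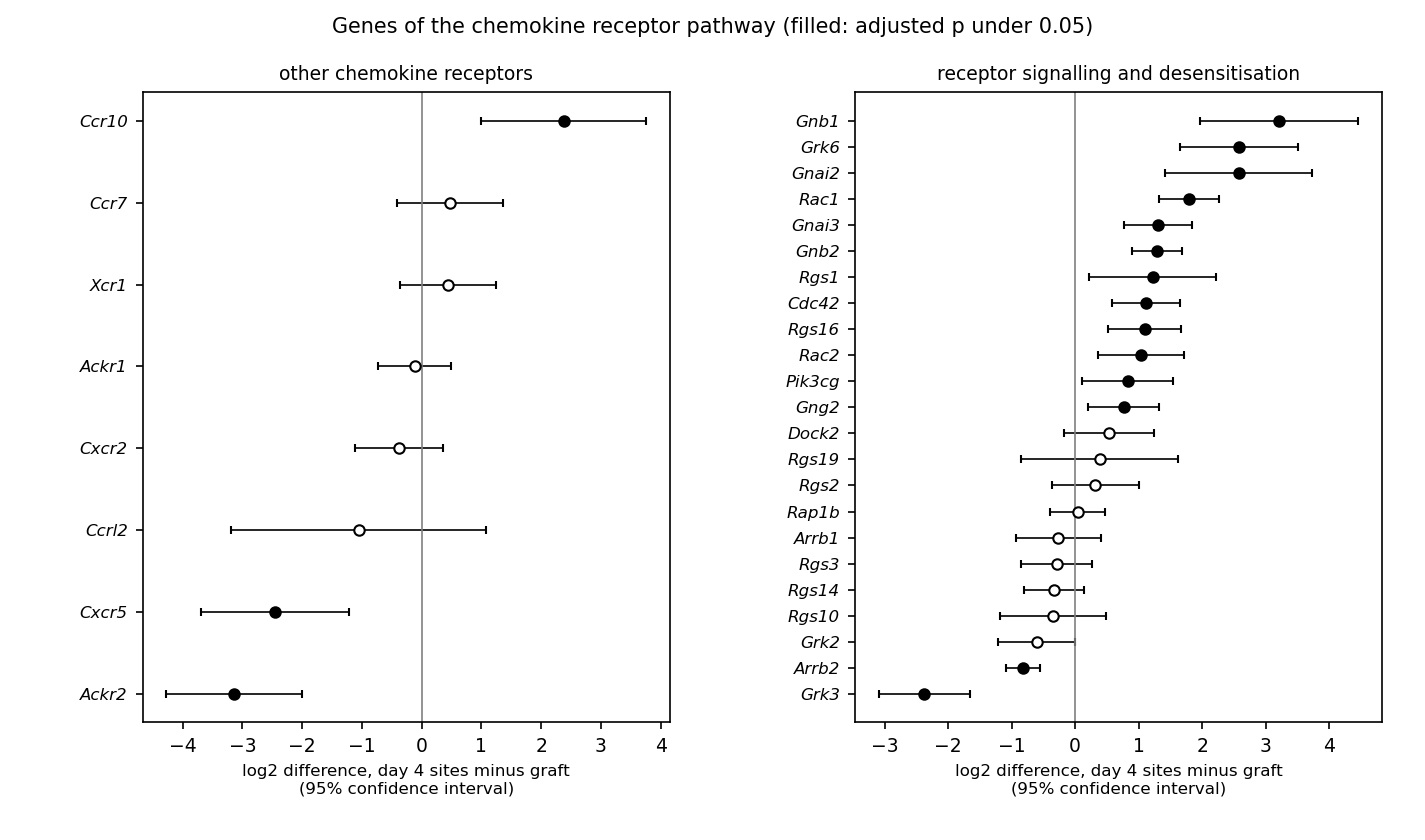
Log2 difference between the day 4 sites together and graft on the x axis, with 95% confidence intervals, for the tested genes of 2 lists, other chemokine receptors (8 genes) and receptor signalling and desensitisation (23 genes). Filled points have a limma adjusted p under 0.05: Ccr10 lies to the right and Cxcr5 and Ackr2 to the left among the receptors, and 12 signalling genes lie to the right and 2 to the left.

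Transcripts of B cells and most of those of neutrophils, monocytes and NK cells were lower on day 4 than in graft. Of all tested genes 34.3% were higher and 19.1% lower in this comparison. B cells are known to carry Cxcr4, Ccr6 and Cxcr5 as well, and neutrophils Cxcr4, so these values stand beside the results on those receptors. Ccr9 was also lower on day 4. Carriers of Ccr9, Cx3cr1, Cxcr3 and Cxcr6 among these cells are not named here, so this list is not complete. Of 8 tested B cell genes 8 fell on day 4, and their summed linear level ran from 2.66 to 18.6 on day 4 arrays and from 240 to 298 on graft arrays. Ms4a1, which encodes CD20, was above background on 0 of 20 day 4 and 4 of 4 graft arrays, at least 136-fold lower on day 4 (limma adjusted p = 1.71e-13), and Spib was likewise above background on 0 day 4 arrays. Both genes met the filter for testing through graft alone. Of 11 neutrophil and monocyte genes 8 fell, among them S100a8, Camp, Ltf and Elane, and 1 rose, Itgam at 1.34 (0.00302), named after its value was seen, with sums from 54.2 to 238 on day 4 and from 385 to 523 in graft. Of 5 NK cell genes 4 fell, namely Eomes, Klra8, Klra4 and Fcer1g, and between 3 and 5 over the 6 scalings and background corrections. Leaving out 1 array at a time, the Fcer1g call was lost for 12 of 24 arrays. The sums of the NK cell genes ran from 2.58 to 32.3 on day 4 and from 15.0 to 24.7 in graft. Of 7 macrophage and dendritic cell genes C1qc and Clec4f fell, between 0 and 3 genes over the 6 scalings and background corrections. Their sums ran from 32.5 to 212 on day 4 and from 51.8 to 90.5 in graft. Of 6 CD4 and regulatory T cell genes Ikzf2 and Ctla4 rose and Foxp3 and Cd4 fell. Over the same settings 1 or 2 of these 6 rose and 1 to 4 fell, with sums from 11.4 to 55.1 on day 4 and from 8.57 to 28.03 in graft. Of 8 T cell genes 4 rose (Cd3e, Lck, Cd3g and Cd5), between 0 and 5 over the same settings, with sums from 157 to 623 on day 4 and from 233 to 380 in graft. The lists are named for cell types, and these bulk values do not show which cells a transcript came from. The part of such cells in the receptor results was not tested.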

How the data were processed

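CD8+ T cells were measured on 24 one-colour Agilent arrays, 5 for each of intestine, lung, liver and blood on day 4 and 4 for graft on day 0, grouped by their titles. The deposited spot intensities were background-subtracted by Agilent Feature Extraction 9.5.1.1, per the file headers (10.7 per the submitters' processing notes). The authors' deposited log2 table, whose normalisation is not given in the sources used here, correlated with quantile-normalised, probe-centred log2 intensities at r of at least 0.983 on every array, with column medians from -0.030 to 0.028. Direction and scale follow from that, and the table was used as an alternative.

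From the processed signal, log2 values were taken and each array's 75th percentile over gene probes was subtracted. Control and non-uniform spots were left out, spots of a probe were averaged, and 32 values with no uniform spot, 0 of them in member probes, were filled with the group mean. The RefSeq table gave a gene name to 27508 of the 39429 gene probes through their accession, to 3544 through the symbol and to 404 through a synonym. A further 1541 went by the scanner files' own name, and 6432 were unnamed. Tests covered named probes that were well above background on all or all but 1 array of a group, and the brightest such probe stood for its gene. One limma 3.58.1 model (R 4.3.3) with 11 contrasts was fitted to 24 arrays and 9450 genes, with Benjamini-Hochberg adjustment within a contrast at 0.05 and 95% intervals. The fit was tested on simulated data. Where a gene was above background in 1 group only, folds are lower bounds against the higher of the dim probe's signal and the array's lowest signal well above background. Such a gene met the filter through that group alone, so its p-value is no independent support for the difference.

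The receptors, gene lists and tests were chosen with earlier results of these data known. All members are described. From each list, up to 4 genes that passed between day 4 and graft and up to 2 between pairs of sites are named, by smallest adjusted p, and for each tested member the 3 other genes with the highest correlation. The values of 1 gene that this rule names are not reported here. Alternatives were other scalings, normexp with an offset of 50, other filters, the mean of a gene's probes, array weights, slide and replicate blocks (statmod 1.5.0) and leaving out arrays. Same-numbered day 4 samples of different sites deviated together in 18 of 30 pairs (r over 0.1), from -0.37 to 0.56. Different-numbered ones did so in 38 of 120 pairs, from -0.63 to 0.65. Same-numbered samples also share a slide, so these values cannot tell whether the numbers mark a shared mouse. No 2 arrays correlated above 0.977.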

Additional observations from a re-analysis of the deposited data

Results flagged for a closer look

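In 3 results, 1 site stood apart from another or a signal was seen outside the tested genes. Cxcr3 differed between intestine and blood by -1.78 (SE 0.57, limma adjusted p = 0.0426), with a lower intestine value on 4 of 5 slides. Cxcr4 differed between the same sites by 1.48 (SE 0.49, limma adjusted p = 0.0485), with a higher intestine value on 5 of 5 slides. A Ccr8 probe that was too dim to be tested was well above background on 2 day 4 arrays, liver 5 and intestine 5, and on 0 of 4 graft arrays. Both of these day 4 arrays have the replicate number 5 and lay on the same slide. A search of 40 sets of same-group values for a single array far from the others flagged none. With only 4 or 5 values in a set, such a search can hardly find one, and single arrays still decided calls. Cxcr6 in liver read 2.23 on liver 2, and passed against graft without that array (2.03, limma adjusted p = 0.0183).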

How the results depend on the processing

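Over day 4 as a whole, 3 receptors passed against graft in the chosen setting and 3 or 4 in each alternative. Site by site the count was 9, and 8 to 11 otherwise. The pairs of sites were the least stable, with 2 calls in the chosen setting. There, 1 passed with quantile normalisation, with the median of detected probes, with normexp and with the deposited log2 table, and 0 with the 75th percentile of detected probes or with no filter on dim probes. Array weights, whose estimation stopped before it converged, gave 11 (6 higher, 5 lower), among them Ccr9 in intestine against blood at 2.24 (limma adjusted p = 0.00451). Without lung 4 and intestine 4 together 1 passed, and leaving out 1 array at a time gave 0 to 2. With no filter more genes were tested, and for the other settings the cause was not tested.

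With slide as a fixed block, which is the replicate block among day 4 samples, 1 pair of sites passed, Cxcr3 in intestine against blood (adjusted p = 0.0398 in limma), and 1 passed with the replicate block over all arrays. The replicate block over all arrays also joins graft and day 4 samples of the same number, which no label links. Such pairs deviated together (r over 0.1) in 4 of 16 cases, against 23 of 64 for different-numbered pairs with graft. With that block Ccr9 in intestine against graft came to -1.91 (0.0454 in limma). With slide as a random block Cxcr6 in blood against graft no longer passed (1.82, 0.0510).

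No called value of a gene turned its sign in any alternative. Dim probes limit the Ccr9 values outside intestine and graft, and Ccr2, Ccr4 and Ccr8 could not be tested.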
